A study of Homo sapiens with 18 samples.

Results

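The 42 genes of the RNA polymerase I and III machinery were followed in poly(A) RNA of DLD1, an established line of human colorectal adenocarcinoma cells. They were chosen by name, as subunits, initiation factors and regulators assigned to RNA polymerase I (14 genes), to RNA polymerase III (26 genes) or to both (2 genes). The 26 include the 5 SNAPc subunits, which are not particular to RNA polymerase III. All 42 were found among the 47021 genes of the count table. Cells were infected with lentivirus and carried 1 of 3 guide RNAs, which made 3 groups: sgZ1 (ZNF692 guide 1, labelled ZNF692 KO), sgZ3 (ZNF692 guide 3, labelled ZNF692 KO) and sgC (the control guide, labelled wild type). ZNF692 encodes a C2H2 zinc-finger protein. Every group had been selected as a stable line with 10 µg/ml puromycin and grown in DMEM with 5% serum, and each had 3 poly(A) and 3 ribosomal RNA libraries, 18 in all. The labels do not say whether a line was 1 clone or a mixed population, nor whether replicates were separate cultures. The p-values therefore cover only the variation among the libraries at hand, which may be technical.

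RNA polymerase I transcribes the repeated ribosomal DNA into a single long precursor that is cut into 18S, 5.8S and 28S ribosomal RNA. It is brought to the promoter by the bending factor UBTF, the TBP-containing complex SL1 (TAF1A to TAF1D) and RRN3, which makes the enzyme competent to start. RNA polymerase III makes 5S ribosomal RNA, transfer RNAs and other short RNAs such as U6, RMRP and RPPH1. Its transfer RNA genes carry internal promoters, the A and B boxes, that TFIIIC binds before it places TFIIIB, the factor that recruits the enzyme, while U6-type genes use SNAPc. Growth signals and MYC are known to raise the activity of both enzymes, and in colorectal cancer cells this supplies ribosomes and transfer RNAs for growth.

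Promoters of 6 members are shown as examples of letter patterns tied to this pathway. These are the E-box CACGTG, which MYC and MAX bind, and CCGGAAG, the core of ETS-family sites. Another is GGTTCGA followed by any 2 bases and CC, the letters of the B box. All 6 members shown differed from sgC over both guides at a false discovery rate under 0.05. POLR3A and GTF3C4, which also hold CACGTG and CCGGAAG but did not differ so, are not shown. The sequences are RefSeq's, build GRCh38.p14, from 250 bases before to 50 bases after the annotated start, read 5′ to 3′ on the gene's strand. Capitals mark the 3 patterns on either strand, and where CCGGAAG occurs on both strands its letters can overlap. POLR1G lies at chr19:45406394-45406693 on the plus strand, POLR3E at chr16:22297159-22297458 on the plus strand, GTF3C2 at chr2:27356715-27357014 on the minus strand, GTF3C6 at chr6:110958456-110958755 on the plus strand, POLR3C at chr1:145823950-145824249 on the plus strand and TAF1C at chr16:84187008-84187307 on the minus strand.
POLR1G: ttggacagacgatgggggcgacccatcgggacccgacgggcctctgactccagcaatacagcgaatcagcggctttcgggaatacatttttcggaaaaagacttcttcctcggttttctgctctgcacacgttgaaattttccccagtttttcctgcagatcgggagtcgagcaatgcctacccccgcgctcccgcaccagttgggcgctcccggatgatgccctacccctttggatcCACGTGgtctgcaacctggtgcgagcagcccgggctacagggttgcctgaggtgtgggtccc
POLR3E: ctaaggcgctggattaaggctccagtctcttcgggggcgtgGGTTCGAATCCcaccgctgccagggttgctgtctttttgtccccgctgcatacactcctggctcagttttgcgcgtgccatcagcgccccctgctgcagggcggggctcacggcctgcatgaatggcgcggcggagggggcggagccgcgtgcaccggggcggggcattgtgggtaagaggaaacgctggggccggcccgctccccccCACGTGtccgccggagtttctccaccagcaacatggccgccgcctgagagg
GTF3C2: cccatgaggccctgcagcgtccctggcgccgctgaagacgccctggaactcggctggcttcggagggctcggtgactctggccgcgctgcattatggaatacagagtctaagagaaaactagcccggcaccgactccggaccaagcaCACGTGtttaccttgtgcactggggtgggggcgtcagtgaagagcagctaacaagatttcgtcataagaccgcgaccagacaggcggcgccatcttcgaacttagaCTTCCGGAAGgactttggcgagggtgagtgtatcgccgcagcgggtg
GTF3C6: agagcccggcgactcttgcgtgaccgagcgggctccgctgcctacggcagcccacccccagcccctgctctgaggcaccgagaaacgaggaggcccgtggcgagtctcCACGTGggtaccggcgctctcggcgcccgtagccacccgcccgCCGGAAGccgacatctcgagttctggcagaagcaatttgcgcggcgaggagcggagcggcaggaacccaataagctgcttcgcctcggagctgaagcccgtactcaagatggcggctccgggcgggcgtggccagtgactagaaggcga
POLR3C: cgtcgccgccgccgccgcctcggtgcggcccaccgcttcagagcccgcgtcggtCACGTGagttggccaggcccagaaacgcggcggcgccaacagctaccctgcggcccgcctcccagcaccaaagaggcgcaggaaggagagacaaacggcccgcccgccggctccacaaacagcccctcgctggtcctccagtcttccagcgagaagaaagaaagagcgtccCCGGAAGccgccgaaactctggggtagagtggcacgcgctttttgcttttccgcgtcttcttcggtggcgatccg
TAF1C: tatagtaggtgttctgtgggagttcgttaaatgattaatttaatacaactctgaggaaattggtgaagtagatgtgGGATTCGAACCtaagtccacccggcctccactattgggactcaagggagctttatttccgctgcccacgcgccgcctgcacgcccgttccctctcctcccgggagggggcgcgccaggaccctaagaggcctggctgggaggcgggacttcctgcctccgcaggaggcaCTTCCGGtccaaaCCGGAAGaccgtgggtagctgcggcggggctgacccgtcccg

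Of the 42 members 35 had a RefSeq promoter. CACGTG, searched on both strands, was in 7 of these 35 (20.0%), against 7.44% of all 27305 promoters of the same length and 9.98% of the 10907 promoters of tested genes. The 7 were those of POLR1G, POLR3A, POLR3C, POLR3E, GTF3C2, GTF3C4 and GTF3C6. CCGGAAG was in 17 of 35 (48.6%), against 10.7% of all promoters and 18.7% of those of tested genes. The consensus palindrome of NRF1 was in 2 of 35 (5.71%), against 1.36% and 2.23%. The B-box letters, searched after the POLR3E sequence had been seen, were in the promoters of POLR3E, 209 bases before the start, and TAF1C, 174 bases before it. Of all 27305 promoters 54 (0.198%) held these letters. As the POLR3E match was known before the search, the 2 matches among 35 members cannot be set against that share. A match is a description of the letters and not a binding site.

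Libraries held 16044224 to 24535642 counts, and 14732 genes passed a filter on low counts, among them all 42 members. Counts were scaled for depth to CPM with TMM factors, and gene positions are those of GENCODE 29 (GRCh38). ZNF692 itself had 9.64, 9.82 and 11.5 CPM in the sgZ1 libraries, 7.92, 8.08 and 6.29 CPM in the sgZ3 libraries and 7.01, 6.32 and 6.18 CPM in the sgC libraries. It was higher in sgZ1 (log2 fold change 0.66, SE 0.14, edgeR adjusted p = 0.00475), and gene counts do not read a small edit, so they do not check the labels. All 8 epithelial markers were detected in every library, and summed to 7179 to 7970 CPM in sgZ1, 8988 to 9633 CPM in sgZ3 and 7446 to 8119 CPM in sgC. Against sgC, 4 of 8 fell in sgZ1, where 10.3% of all tested genes fell, and 3 of 8 rose in sgZ3, where 19.2% rose. Relative to sgZ1, 5 of 8 were higher in sgZ3, where 12.8% of genes were, among them LGALS4 (0.97) and EPCAM (0.62). The values of all 8 ran from 0.14 to 0.97. The libraries sgZ1 replicate 2 and sgZ3 replicate 3 stood apart. Their mesenchymal markers summed to 104.5 and 108.5 CPM, against 6.63 to 8.91 CPM in the other 7, with 0 and 1 of 7 markers at 0, against 2 of 7. VIM was at 22.9 and 21.2 CPM there and SPARC at 64.3 and 66.8 CPM. Leukocyte markers summed to 4.12 to 5.84 CPM and endothelial ones to 1.60 to 3.67 CPM.

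Across both ZNF692 guides, more members were higher than lower relative to sgC. With a false discovery rate under 0.05, 18 of 42 members rose (42.9%) and 4 fell (9.52%), where 33.2% of all 14732 tested genes were called, 18.6% higher and 14.6% lower. The members' median log2 fold change was 0.26, against 0.0078 over all tested genes. In 12 members every sgZ1 and sgZ3 library lay above every sgC library, and in 4 every one lay below, against 11.9% and 11.5% of all tested genes. The risers came from most complexes: 3 of 6 Pol I subunits, 1 of 2 shared subunits, 3 of 8 Pol I factors, 4 of 10 Pol III subunits, 1 of 3 TFIIIB subunits, TFIIIA, 3 of 6 TFIIIC subunits and 2 of 5 SNAPc subunits. The 4 that fell were BAZ2A, TAF1D, POLR3C and SNAPC1. In bulk RNA a change in the share of cells and a change in RNA per cell cannot be told apart.

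Which members were called depended on the libraries. Over both guides 18 rose and 4 fell, and without sgC replicate 1, 2 or 3 the counts were 9, 12 and 11 higher with 0 lower each, where 14.5%, 22.1% and 15.9% of all genes were called. They were 16 and 0 without sgZ3 replicate 1, 14 and 0 without sgZ3 replicate 2, and 17 and 1 without sgZ1 replicate 3, where 24.9%, 24.0% and 29% of genes were called. Fewer calls were thus made across the whole table in each of these 6 settings. Without both mesenchymal-marker libraries all 22 calls were kept, and the counts were 21 higher and 9 lower among 49.6% of genes called. With library totals in place of TMM factors the median of all genes was -0.093, against 0.0078 with TMM. The members' counts were then 11 higher and 7 lower, and with GC and length offsets 15 and 4. In these settings 35% and 35.2% of all genes were called. Calls of 8 members held in every alternative run and in every library left out: POLR1B, POLR1E, POLR1G, RRN3, POLR3E, POLR3G, POLR3K and GTF3C2.

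**Figure D1:**
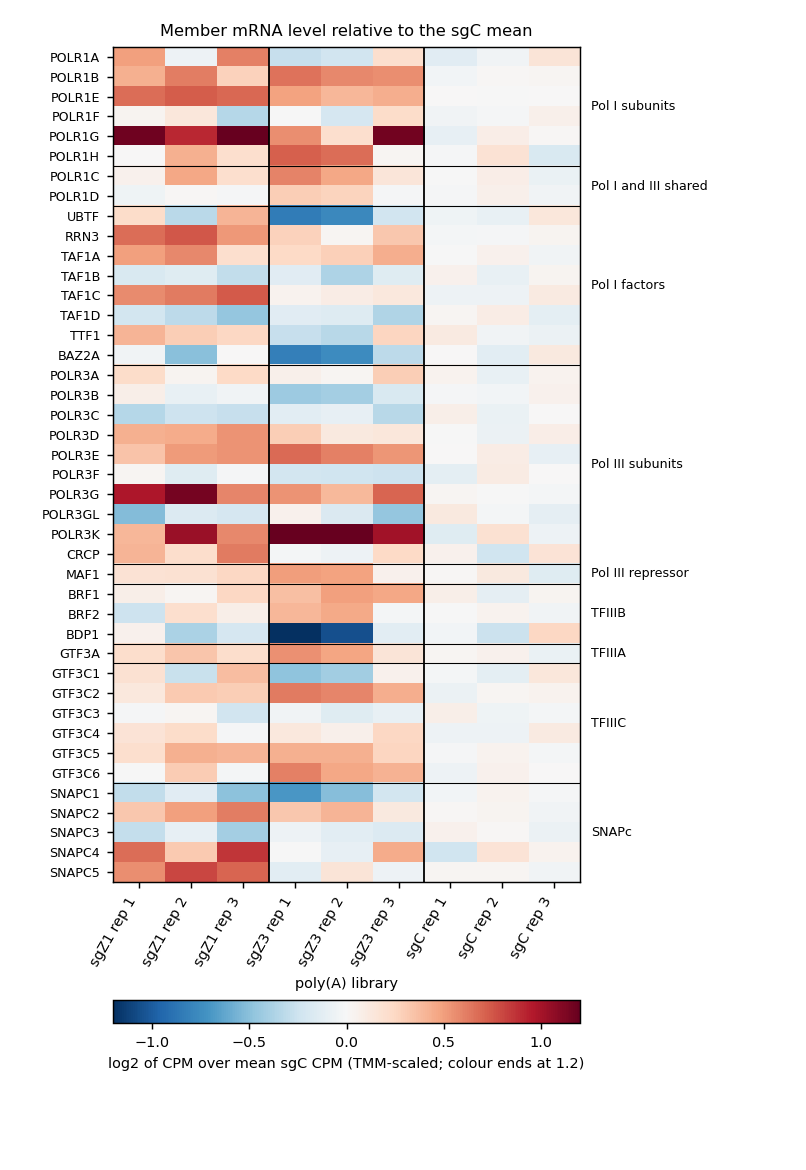
Level of each of the 42 members (rows, grouped by complex) in each of the 9 poly(A) libraries (columns, sgZ1, sgZ3 and sgC from left to right), as log2 of CPM over the mean sgC CPM. POLR1E, POLR3E, POLR3G, POLR3K and POLR1B are red in all 6 sgZ1 and sgZ3 libraries, while UBTF, BAZ2A and BDP1 are darkest blue in sgZ3 replicates 1 and 2.

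**Figure D2:**
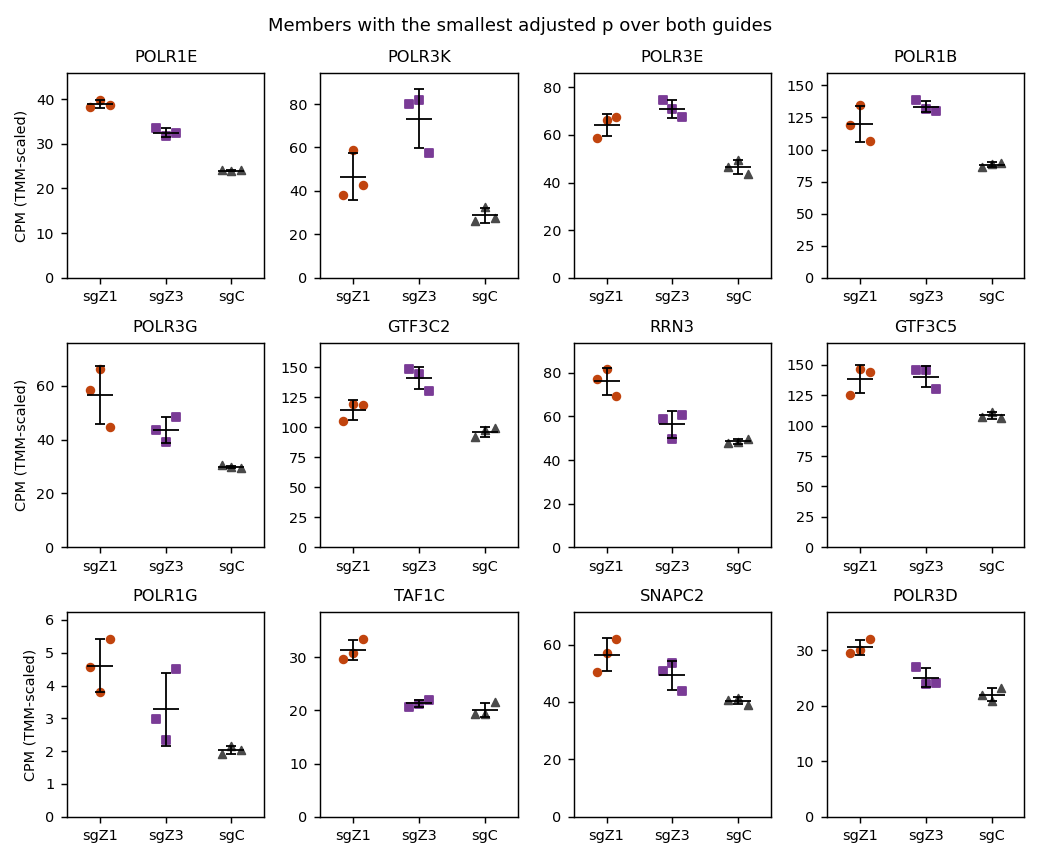
CPM (TMM-scaled) of the 12 members with the smallest adjusted p over both guides, for each library (points), with the mean and SD of each group (lines, n = 3). The sgC points lie below all sgZ1 and sgZ3 points except in TAF1C and RRN3, where sgC replicate 3 lies among the sgZ3 points, and axes start at 0.

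Subunits of RNA polymerase I were the group with the highest median, 0.44 on the log2 scale over both guides. Of these 6 subunits 3 rose with none called lower, where 18.6% of all genes were higher and 14.6% lower. POLR1E (chr9:37485935-37503697, plus strand), which forms a pair with POLR1G on the flank of the enzyme, had 38.2, 39.8 and 38.6 CPM in the sgZ1 libraries, 33.5, 31.7 and 32.4 CPM in the sgZ3 libraries and 24.1, 23.9 and 24.1 CPM in the sgC libraries. All 3 groups were tight and did not overlap, with sgZ1 highest. POLR1E rose 1.48-fold over both guides (log2 fold change 0.57, SE 0.08, edgeR adjusted p = 0.000374) and was lower in sgZ3 than in sgZ1 (log2 fold change -0.26, SE 0.08, edgeR adjusted p = 0.0377). That difference between guides was lost in 10 of 19 alternatives, among them each of the 3 sgC libraries, sgZ1 replicates 1 and 3 and sgZ3 replicates 1 and 2 left out, with adjusted p of 0.0564 to 0.143.

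Its partner POLR1G (chr19:45406209-45410766, plus strand) had the lowest level per kb of the Pol I subunits. It had 4.57, 3.81 and 5.42 CPM in the sgZ1 libraries, 2.98, 2.33 and 4.52 CPM in the sgZ3 libraries and 1.9, 2.14 and 2.05 CPM in the sgC libraries. Each sgZ1 and sgZ3 library was above the sgC libraries, and the guides overlapped each other. POLR1G rose 1.91-fold over both guides (log2 fold change 0.94, SE 0.21, edgeR adjusted p = 0.00704). The sgZ3 effect was 0.70 (adjusted p = 0.043) with all libraries and 0.33 (adjusted p = 0.204) without both mesenchymal-marker libraries, and its call was also lost without sgZ3 replicate 1 or 3, sgZ1 replicate 1 or 3 or any sgC library (adjusted p of 0.0537 to 0.185) and with upper-quartile factors, library totals, GC and length offsets or the compared groups only (adjusted p of 0.0505 to 0.105). Exons of ERCC1 and PPP1R13L on the other strand cover 45.1% of POLR1G's exons, and the strand setting of counting is not given, so their reads could count here.

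POLR1B (chr2:112541915-112577150, plus strand), the second-largest subunit and part of the active centre, had 119, 135 and 107 CPM in the sgZ1 libraries, 139, 132 and 130.2 CPM in the sgZ3 libraries and 86.1, 89 and 89.8 CPM in the sgC libraries. The sgZ1 and sgZ3 libraries were all above the sgC libraries and overlapped each other. POLR1B rose 1.43-fold (log2 fold change 0.52, SE 0.09, edgeR adjusted p = 0.00122), by 0.44 in sgZ1 and 0.60 in sgZ3. The largest subunit, POLR1A, was not called, at 0.14 over both guides, 0.37 in sgZ1 and -0.08 in sgZ3. POLR1F, part of the stalk that RRN3 binds, was at -0.01. POLR1H, which helps the enzyme cut RNA when it stalls, was at 0.36 (adjusted p = 0.0863) and was called higher in sgZ3 (0.50, adjusted p = 0.0409). Its call was lost without sgZ3 replicate 1 or 2, sgZ1 replicate 3 or sgC replicate 1 or 3, with adjusted p of 0.0662 to 0.155, and with upper-quartile factors, library totals, a mean of at least 10 CPM or the compared groups only, with adjusted p of 0.0505 to 0.115. Exons of ZNRD1ASP on the other strand cover 24.5% of POLR1H's exons.

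POLR1C and POLR1D form the assembly core that both enzymes share. POLR1C rose over both guides (log2 fold change 0.33, SE 0.12, edgeR adjusted p = 0.0464), a call lost in 11 of 18 alternatives, with adjusted p of 0.0677 to 0.18 when sgZ1 replicate 2 or 3, sgZ3 replicate 1 or 2 or any sgC library was left out. POLR1D was at 0.09 and was not called. POLR1C's exons overlap those of genes on the other strand over 18.2% of their length.

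The factors that bring RNA polymerase I to ribosomal DNA did not move as a block: 3 of 8 rose, 2 fell and 3 were not called, and their median of -0.048 turned to 0.031 with GC and length offsets. RRN3 (chr16:15060022-15094317, minus strand), which bridges the enzyme and SL1, had 77.2, 81.5 and 69.6 CPM in the sgZ1 libraries, 58.7, 49.5 and 60.7 CPM in the sgZ3 libraries and 47.8, 48.2 and 49.7 CPM in the sgC libraries. The sgZ1 libraries were the highest, and sgZ3 replicate 2 was within the range of sgC. RRN3 rose over both guides (log2 fold change 0.43, SE 0.09, edgeR adjusted p = 0.00462), by 0.65 in sgZ1 (adjusted p = 0.000747), while in sgZ3 it was at 0.21 (adjusted p = 0.124). The guides differed (log2 fold change -0.43, SE 0.10, edgeR adjusted p = 0.00828), and without sgZ3 replicate 2 the adjusted p of that difference was 0.05. RRN3 has near-identical pseudogene copies, so its counts are uncertain.

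Among the SL1 subunits, TAF1C (chr16:84177847-84187070, minus strand) had 29.8, 30.9 and 33.5 CPM in the sgZ1 libraries, 20.7, 21.3 and 22 CPM in the sgZ3 libraries and 19.3, 19.3 and 21.6 CPM in the sgC libraries. The 3 sgZ1 libraries stood above all others, and the sgZ3 and sgC libraries overlapped. TAF1C rose in sgZ1 (log2 fold change 0.64, SE 0.10, edgeR adjusted p = 0.000516) and was at 0.09 in sgZ3 (adjusted p = 0.505), and the difference between guides was called (log2 fold change -0.56, SE 0.10, edgeR adjusted p = 0.00138). Over both guides it rose by 0.37 (adjusted p = 0.00803), with adjusted p = 0.0583 without sgC replicate 1. With GC and length offsets the difference between guides had adjusted p = 0.16.

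The other SL1 subunits split. TAF1A rose (log2 fold change 0.38, SE 0.10, edgeR adjusted p = 0.0172), with adjusted p = 0.0776 and 0.0862 without sgC replicates 1 and 3 and 0.059 with library totals. TAF1D fell (log2 fold change -0.27, SE 0.09, edgeR adjusted p = 0.038), a call lost in 8 of 18 alternatives: without sgZ1 replicate 3, sgZ3 replicate 1 or 2 or any sgC library (adjusted p of 0.0518 to 0.154), without the low-count filter (adjusted p = 0.0741) and with GC and length offsets (adjusted p = 0.912). Small nucleolar RNAs and a microRNA annotated on the same strand overlap 946 of the 8420 bases of TAF1D's exons, so reads of these RNAs could count there. TAF1B was at -0.21 (adjusted p = 0.0818).

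UBTF (chr17:44205033-44221626, minus strand), the HMG-box protein that bends ribosomal DNA and keeps its active copies open, differed between the 2 guides. It had 36.3, 38 and 55.4 CPM in sgZ3, 75.7, 51.9 and 85.8 CPM in sgZ1 and 62.4, 61.1 and 71.1 CPM in sgC. The sgZ3 libraries were below the sgC libraries, while sgZ1 replicates 1 and 3 were above them and sgZ1 replicate 2 below. UBTF fell in sgZ3 (log2 fold change -0.58, SE 0.19, edgeR adjusted p = 0.0321), was at 0.13 in sgZ1 (adjusted p = 0.649), and was lower in sgZ3 than in sgZ1 (log2 fold change -0.71, SE 0.19, edgeR adjusted p = 0.0152). Within each guide the library with mesenchymal markers stood apart in the direction of the other guide, at 55.4 CPM in sgZ3 replicate 3 and 51.9 CPM in sgZ1 replicate 2. Without both libraries the difference between guides was -1.15 on the log2 scale (adjusted p = 6.41e-10). It lost its call without sgZ3 replicate 1 or 2 or sgZ1 replicate 1 or 3 (adjusted p of 0.0705 to 0.0866), and the fall in sgZ3 did without sgZ3 replicate 1 or 2, sgZ1 replicate 1 or any sgC library (adjusted p of 0.0506 to 0.127).

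BAZ2A, the large subunit of the NoRC complex that silences ribosomal DNA copies, fell over both guides (log2 fold change -0.39, SE 0.13, edgeR adjusted p = 0.0407). The fall was -0.61 in sgZ3 (adjusted p = 0.0107), and sgZ1 was at -0.17 (adjusted p = 0.465). BAZ2A's call over both guides was lost without sgZ3 replicate 1 or 2 or any sgC library (adjusted p of 0.0585 to 0.17), and its call in sgZ3 without sgZ3 replicate 1 (adjusted p = 0.0504) or 2 (adjusted p = 0.0533). TTF1, which binds the terminators of ribosomal DNA and recruits NoRC, was not called, at 0.12.

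Subunits of RNA polymerase III gave the largest single change. Over both guides 4 of 10 rose and 1 fell, with a median log2 fold change of 0.19, where 18.6% of all genes were higher and 14.6% lower. POLR3K (chr16:46407-53628, minus strand), the small subunit needed for termination and reinitiation, had 37.9, 58.8 and 42.8 CPM in the sgZ1 libraries, 80.3, 81.9 and 57.6 CPM in the sgZ3 libraries and 26, 32.6 and 27.6 CPM in the sgC libraries. All sgZ3 libraries but replicate 3 were above all sgZ1 libraries, and all of both were above sgC. POLR3K rose 2.04-fold over both guides (log2 fold change 1.03, SE 0.16, edgeR adjusted p = 0.000877), 1.62-fold in sgZ1 and 2.55-fold in sgZ3. It was higher in sgZ3 than in sgZ1 (log2 fold change 0.65, SE 0.17, edgeR adjusted p = 0.0149). That difference was 0.97 (adjusted p = 2.02e-08) without both mesenchymal-marker libraries and lost its call without sgZ3 replicate 1 or 2 or sgZ1 replicate 1 or 3 (adjusted p of 0.0596 to 0.0783). With sgC replicate 1 or 3 left out, the sgZ1 rise missed the threshold (adjusted p = 0.0704 and 0.0536).

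POLR3E (chr16:22297375-22335103, plus strand), whose protein pairs with POLR3D and whose promoter shown above holds the E-box and the B-box letters, had 58.9, 66.3 and 67.6 CPM in the sgZ1 libraries, 74.7, 70.8 and 67.4 CPM in the sgZ3 libraries and 46.7, 49.4 and 43.6 CPM in the sgC libraries. Each sgZ1 and sgZ3 library was above each sgC library. POLR3E rose 1.45-fold over both guides (log2 fold change 0.54, SE 0.08, edgeR adjusted p = 0.000953), by 0.47 in sgZ1 and 0.61 in sgZ3, and with GC and length offsets the sgZ1 value had adjusted p = 0.123. Its partner POLR3D had 29.6, 30.0 and 32.1 CPM in the sgZ1 libraries, 27.1, 24 and 24.2 CPM in the sgZ3 libraries and 21.9, 20.9 and 23.2 CPM in the sgC libraries. The sgZ1 libraries were highest and all 6 were above sgC. POLR3D rose over both guides (log2 fold change 0.33, SE 0.09, edgeR adjusted p = 0.0127) and in sgZ1 (0.47, adjusted p = 0.00393). With sgC replicate 1 or 2 left out, the rise over both guides missed the threshold (adjusted p = 0.0674 and 0.0696), as it did with library totals (adjusted p = 0.0568).

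POLR3G (chr5:90471748-90514553, plus strand) and POLR3GL are alternative subunits of which each enzyme carries 1, and POLR3G is the form known from stem cells and cancer cells. POLR3G had 58.6, 66.1 and 44.8 CPM in the sgZ1 libraries, 43.5, 39 and 48.5 CPM in the sgZ3 libraries and 30.4, 29.8 and 29.4 CPM in the sgC libraries. Each sgZ1 and sgZ3 library was above each sgC library, and the guides overlapped. It rose 1.66-fold (log2 fold change 0.73, SE 0.12, edgeR adjusted p = 0.00124), by 0.92 in sgZ1 and 0.55 in sgZ3. POLR3GL (chr1:145964702-145978848, plus strand) had 7.64, 9.78 and 9.51 CPM in the sgZ1 libraries, 11.4, 9.71 and 7.92 CPM in the sgZ3 libraries and 11.9, 10.8 and 10.2 CPM in the sgC libraries. The sgZ1 libraries were below sgC and the sgZ3 libraries overlapped both, and at -0.23 (SE 0.13, adjusted p = 0.19) it was not called. Another gene annotated on the same strand overlaps 382 of the 1799 bases of POLR3GL's exons. Per kb of exon, POLR3G stood to POLR3GL at 2.86 ± 0.677 in sgZ1, 2.08 ± 0.572 in sgZ3 and 1.23 ± 0.074 in sgC (mean ratio ± SD, n = 3 each), described with no test.

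The other Pol III subunits changed less. POLR3C, part of the trio with POLR3F and POLR3G or POLR3GL that opens DNA, fell (log2 fold change -0.24, SE 0.08, edgeR adjusted p = 0.0433), a call lost in 9 of 18 alternatives: with RLE factors (adjusted p = 0.0541), with no low-count filter (adjusted p = 0.109), and without sgZ1 replicate 1 or 3, sgZ3 replicate 1 or 2 or any sgC library (adjusted p of 0.0528 to 0.187). POLR3B, the second-largest subunit, was not called over both guides (-0.18) and fell in sgZ3 (-0.34, adjusted p = 0.0219), a call lost without sgZ3 replicate 1 or 2 or sgC replicate 1 or 3 (adjusted p of 0.0669 to 0.099). The largest subunit POLR3A was at 0.15, POLR3F at -0.14 and the stalk subunit CRCP at 0.24, and none of these was called in any comparison with sgC. MAF1, the repressor that binds the enzyme when growth signals fall, was at 0.28 over both guides (adjusted p = 0.0561). It was called higher in sgZ3 (0.36, adjusted p = 0.034), which was lost without sgZ3 replicate 1 or 2 or sgC replicate 1 or 3 (adjusted p of 0.0945 to 0.144) and with upper-quartile factors, library totals, GC and length offsets or the compared groups only (adjusted p of 0.051 to 0.16).

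**Figure D3:**
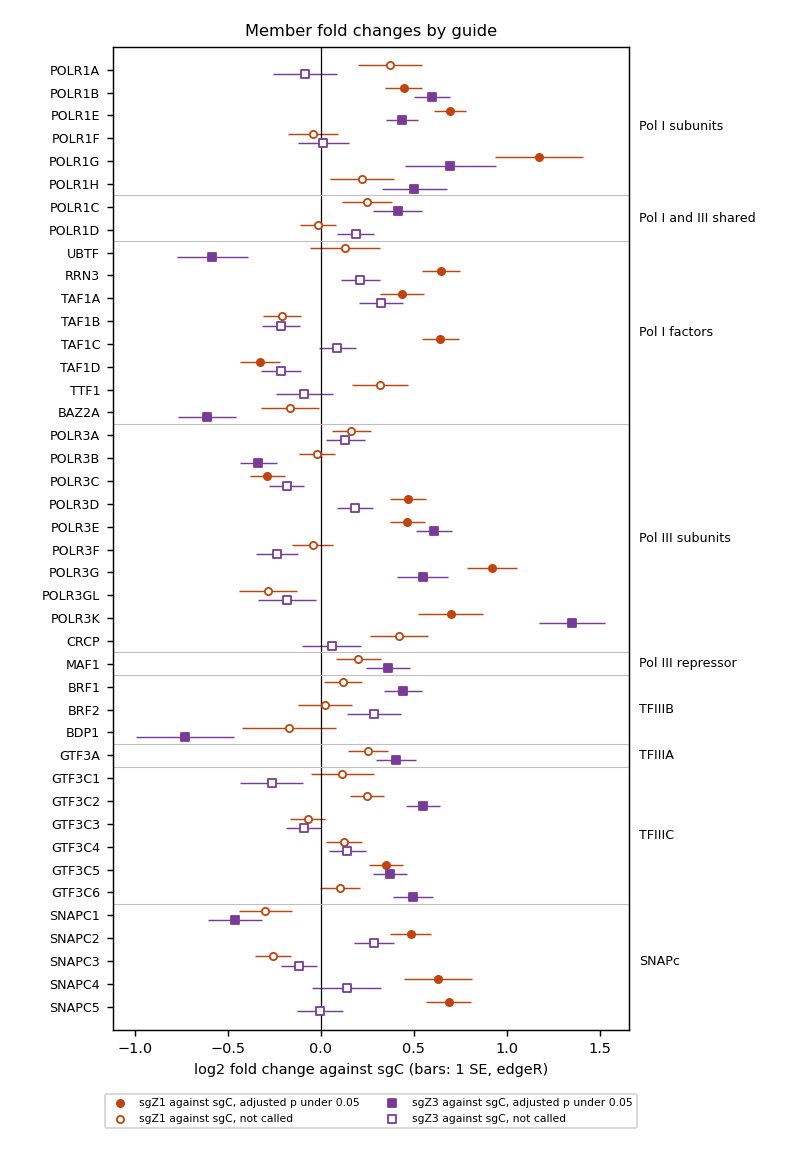
log2 fold change against sgC (x axis; bars are 1 SE from edgeR) of each member in sgZ1 (circles) and sgZ3 (squares), with filled symbols at a false discovery rate under 0.05. POLR3K and POLR1G lie farthest right, at 1.35 in sgZ3 and 1.17 in sgZ1, and BDP1 and BAZ2A farthest left, in sgZ3. Both sets of values share the sgC libraries.

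Among the Pol III initiation factors, 3 of 6 TFIIIC subunits rose over both guides and 0 fell, where 18.6% of all genes were higher and 14.6% lower. GTF3C2 (chr2:27325849-27357034, minus strand), one of the subunits on the B-box side of the complex, had 105, 119.8 and 118 CPM in the sgZ1 libraries, 148, 144 and 130.5 CPM in the sgZ3 libraries and 91.6, 98.2 and 99.2 CPM in the sgC libraries. The sgZ3 libraries were highest, and all 6 were above sgC. GTF3C2 rose 1.32-fold over both guides (log2 fold change 0.40, SE 0.08, edgeR adjusted p = 0.0036), by 0.55 in sgZ3 (adjusted p = 0.00135), while sgZ1 was at 0.25 (adjusted p = 0.0641). Exons on the other strand, among them GTF3C2-AS1, cover 25.3% of its exons. GTF3C5 had 125, 146 and 144 CPM in the sgZ1 libraries, 146, 145 and 130.1 CPM in the sgZ3 libraries and 107, 112 and 106 CPM in the sgC libraries. The guides overlapped each other and lay above sgC. It rose over both guides (log2 fold change 0.36, SE 0.08, edgeR adjusted p = 0.00624), with adjusted p = 0.057 under GC and length offsets.

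GTF3C6 rose over both guides (log2 fold change 0.30, SE 0.09, edgeR adjusted p = 0.0301), and the rise was 0.49 in sgZ3 (adjusted p = 0.00503) beside 0.10 in sgZ1 (adjusted p = 0.527). Its sgZ3 call held in every alternative run, while its call over both guides was lost without sgZ3 replicate 1 or 2 or any sgC library (adjusted p of 0.0528 to 0.141) and with upper-quartile factors, library totals or GC and length offsets (adjusted p of 0.0529 to 0.0961). GTF3C1, which holds the B-box contact, was at -0.07, GTF3C3 at -0.08 and GTF3C4 at 0.13, and none was called in any comparison with sgC. GTF3A, the zinc-finger protein TFIIIA that starts assembly on 5S genes, rose over both guides (log2 fold change 0.33, SE 0.09, edgeR adjusted p = 0.0204), with adjusted p of 0.0508 to 0.11 without any 1 of the sgC libraries and 0.0585 with library totals.

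TFIIIB contains BRF1 at transfer RNA and 5S genes and BRF2 at U6-type genes. BRF1 had 22.9, 22.1 and 25.9 CPM in the sgZ1 libraries, 27.9, 30.6 and 30.0 CPM in the sgZ3 libraries and 22.8, 20.2 and 22.2 CPM in the sgC libraries. The sgZ3 libraries lay above sgC and the sgZ1 libraries overlapped sgC. BRF1 rose over both guides (log2 fold change 0.28, SE 0.09, edgeR adjusted p = 0.0311) and in sgZ3 (0.44, adjusted p = 0.00674), and its call over both guides was lost without sgZ3 replicate 2 or any sgC library (adjusted p of 0.0692 to 0.146) and with upper-quartile factors, library totals, no low-count filter or GC and length offsets (adjusted p of 0.0658 to 0.154), and its call in sgZ3 with library totals (adjusted p = 0.052). BRF2 had 17, 23.2 and 21.2 CPM in the sgZ1 libraries, 26.5, 27.6 and 19.8 CPM in the sgZ3 libraries and 20.2, 20.7 and 19.7 CPM in the sgC libraries. Its groups overlapped and it was not called, at 0.15 (SE 0.13, adjusted p = 0.361), with 59.0% of its exons covered by ADGRA2 on the other strand. BDP1, the third TFIIIB subunit and the one shared by both forms, had the lowest value of any member over both guides without being called, at -0.45 (SE 0.22, adjusted p = 0.13). BDP1 fell in sgZ3 (-0.73, adjusted p = 0.0458), a call lost without sgZ1 replicate 1 or 3, sgZ3 replicate 1 or 2 or any sgC library (adjusted p of 0.0554 to 0.172), with GC and length offsets (adjusted p = 0.114) and with the compared groups only (adjusted p = 0.0619). Its sgZ3 libraries held 4.4, 5.37 and 10.2 CPM, with the mesenchymal-marker library at the high end, and without both such libraries the fall was -1.23 (adjusted p = 6.77e-07).

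SNAPc, the complex that binds the proximal element of small nuclear RNA genes, had 2 risers and 1 that fell among its 5 subunits. SNAPC2 (chr19:7920316-7923250, plus strand) had 50.5, 56.9 and 61.9 CPM in the sgZ1 libraries, 50.7, 53.6 and 43.7 CPM in the sgZ3 libraries and 40.7, 41.4 and 39.1 CPM in the sgC libraries. All sgZ1 and sgZ3 libraries were above sgC. It rose over both guides (log2 fold change 0.39, SE 0.09, edgeR adjusted p = 0.01), with adjusted p = 0.0521 and 0.0596 without sgC replicates 1 and 3 and 0.209 with GC and length offsets. SNAPC5 (chr15:66490135-66497813, minus strand) had 8.73, 10.6 and 9.13 CPM in sgZ3, 14, 16.5 and 15.4 CPM in sgZ1 and 9.64, 9.64 and 9.25 CPM in sgC. The sgZ1 libraries were all above the rest, and sgZ3 and sgC overlapped. Another gene annotated on the same strand overlaps 583 of the 2509 bases of its exons, and MAP2K1 on the other strand 216. SNAPC5 rose in sgZ1 (log2 fold change 0.69, SE 0.12, edgeR adjusted p = 0.00144), was at -0.0030 in sgZ3 (adjusted p = 0.988), and differed between guides (log2 fold change -0.69, SE 0.12, edgeR adjusted p = 0.00136), a difference called in all 19 alternatives. Over both guides it rose by 0.34 (adjusted p = 0.0285), a call lost without sgZ1 replicate 2, sgZ3 replicate 2 or any sgC library (adjusted p of 0.0509 to 0.118) and with no low-count filter, upper-quartile factors or library totals (adjusted p of 0.0502 to 0.0936).

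SNAPC1 fell over both guides (log2 fold change -0.38, SE 0.12, edgeR adjusted p = 0.032), a call lost without sgZ1 replicate 3, sgZ3 replicate 1 or 2 or any sgC library (adjusted p of 0.0584 to 0.102). Another gene annotated on the same strand overlaps 565 of the 2656 bases of SNAPC1's exons. SNAPC4, the largest subunit and the one that contacts DNA through Myb repeats, was at 0.39 over both guides (adjusted p = 0.0824). It was called higher in sgZ1 (0.63, adjusted p = 0.0235), which was lost without sgZ1 replicate 1 or 3 or sgC replicate 1 or 3 (adjusted p of 0.0622 to 0.117) and with GC and length offsets (adjusted p = 0.292). SNAPC3 was at -0.19 and not called.

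Taken guide by guide, sgZ1 had 14 members higher and 2 lower than sgC (33.3% and 4.76%), where 25.8% of all genes were called, 15.5% higher and 10.3% lower. Its median over members was 0.21, against 0.011 over all genes. With GC and length offsets these medians were 0.068 and -0.092, with 10 members higher and 3 lower, where 34.9% of all genes were called. The 2 that fell, TAF1D and POLR3C, lost their calls when any of 7 of the 9 libraries was left out (adjusted p of 0.0516 to 0.138 for TAF1D and 0.0592 to 0.165 for POLR3C), which left 0 or 1 member lower without sgZ1 replicate 1 or 3, sgZ3 replicate 1 or 2 or any sgC library. In sgZ3, 14 members were higher and 5 lower than sgC (33.3% and 11.9%), where 36.3% of genes were called, 19.2% higher and 17.1% lower. The 5 that fell were UBTF, BAZ2A, POLR3B, BDP1 and SNAPC1. Its median was 0.14, against -0.018. Without sgZ3 replicates 1 and 2 in turn sgZ3 had 9 and 10 higher and 0 lower, where 21.2% and 20.2% of all genes were called. Without sgC replicates 1, 2 and 3 it had 10, 12 and 9 higher and 1, 2 and 1 lower, where 20.4%, 27.8% and 20.5% of genes were called. Without sgZ1 replicate 1 it had 13 higher and 3 lower, where 33.3% of genes were called. With library totals alone sgZ3 had 7 higher and 11 lower members and a median of -0.013, beside a median of -0.17 over all genes. In that setting 39.9% of genes were called. Both comparisons share the sgC libraries.

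The guides themselves differed in 12 members, about the share seen across the table. Relative to sgZ1, sgZ3 had 4 members higher (9.52%) and 8 lower (19.0%), where 28.6% of all genes were called, 12.8% higher and 15.8% lower. The members lower in sgZ3 were 4 Pol I factors, UBTF, RRN3, TAF1C and BAZ2A, together with POLR1E, POLR3B, POLR3D and SNAPC5. Those higher in sgZ3 were POLR3K, BRF1, GTF3C2 and GTF3C6, a Pol III subunit, a TFIIIB subunit and a pair of TFIIIC subunits. SNAPC5 was the one called in every alternative run. Without both mesenchymal-marker libraries 10 members were higher and 16 lower, where 53.2% of all genes were called, and BRF1 alone of the 12 lost its call (0.23, adjusted p = 0.0762). With GC and length offsets 11 were higher and 6 lower, where 43.2% of genes were called, and with library totals 2 and 14, where 28.9% were. Leaving out sgZ3 replicates 1, 2 and 3 gave 0, 1 and 9 higher and 3, 2 and 15 lower, where 17.7%, 17.3% and 41.0% of all genes were called. Leaving out sgZ1 replicates 1, 2 and 3 gave 0, 3 and 2 higher and 3, 12 and 4 lower, where 16.6%, 36.9% and 19.3% of genes were called. Leaving out any sgC library gave 3 or 4 higher and 4 lower, with 23.0% to 24.5% of genes called. Epithelial markers also differed between the guides, with 5 of 8 higher in sgZ3, where 12.8% of all genes were higher. Their summed levels were 8988 to 9633 CPM in sgZ3 and 7179 to 7970 CPM in sgZ1. The part of these markers in the differences was not tested.

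Transcript length moved with both libraries that stood apart, in opposite directions, and GC content with sgZ1 replicate 2. Across the 42 members, the rank correlation of the longest annotated transcript with the difference of sgZ1 replicate 2 from its sister libraries was -0.47, and with that of sgZ3 replicate 3 from its own it was 0.53. The same correlations with GC content were -0.48 and -0.11. These are descriptions over genes of the same few libraries. Over both guides against sgC the correlation was -0.25 with length and 0.31 with GC content. The 21 members with transcripts of up to 3717 bases had 11 higher and 2 lower and a median of 0.33. The 21 longer ones had 7 higher and 2 lower and a median of 0.13. Over all tested genes 18.6% were higher and 14.6% lower. Genes outside the members were not split by length, so the split is not known to be particular to the members. The part of length and GC content in the results was not tested beyond the offsets given above.

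**Figure D4:**
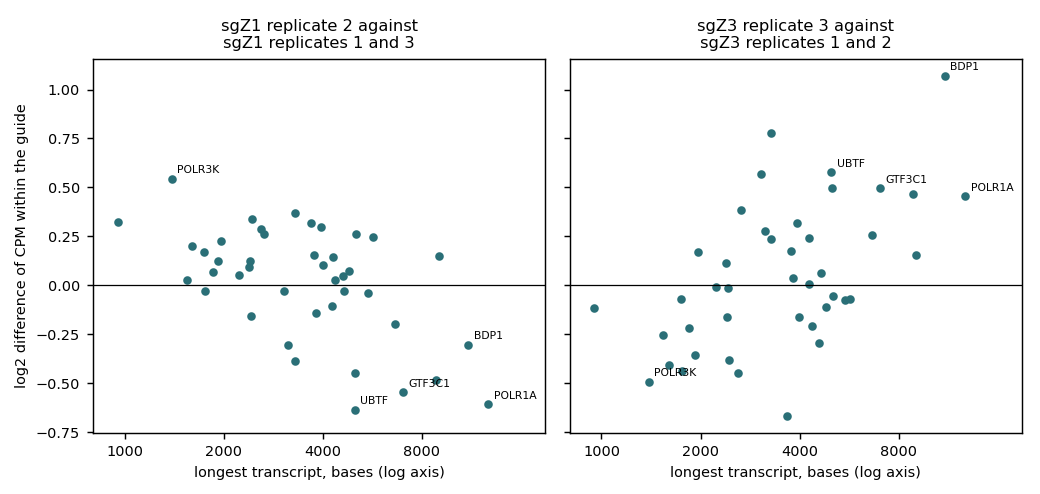
log2 difference in CPM of sgZ1 replicate 2 from sgZ1 replicates 1 and 3 (left) and of sgZ3 replicate 3 from sgZ3 replicates 1 and 2 (right), against the length of each member's longest annotated transcript in bases (log axis), 1 point a member. POLR1A, UBTF and GTF3C1 lie low on the left and high on the right, and POLR3K the other way round.

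Levels compared per kb of exon differed widely between members. MAF1 had the highest mean, at 88.6 ± 2.43 CPM per kb in sgZ1, 98.9 ± 16.5 in sgZ3 and 77 ± 7.02 in sgC (mean ± SD, n = 3), and GTF3C6 came next, at 69.5 ± 9.37 CPM per kb in sgZ1, 91.3 ± 6.33 in sgZ3 and 64.8 ± 2.65 in sgC, within MAF1's spread in sgZ3. Among Pol I subunits in sgC, POLR1F and POLR1B led at 14.9 ± 0.554 and 13.9 ± 0.308 CPM per kb, POLR1E and POLR1H followed at 9.56 ± 0.0442 and 9.33 ± 1.13 with no separation beyond their spread, then came POLR1A at 5.85 ± 0.606, and POLR1G was last at 0.554 ± 0.0334. In sgZ1 POLR1B and POLR1E came first, at 19 ± 2.24 and 15.5 ± 0.337, and POLR1F at 14.5 ± 2.44 was not separate from POLR1E. Among Pol III subunits POLR3C led in sgC at 21.4 ± 1.12 and CRCP was last at 2.29 ± 0.316. POLR3K had 24.6 ± 5.78 CPM per kb in sgZ1, 38.8 ± 7.18 in sgZ3 and 15.2 ± 1.82 in sgC, so it lay above POLR3C in both guides' means and below it in sgC. BRF1 stood to BRF2 at 0.246 ± 0.0423 in sgZ1, 0.257 ± 0.0523 in sgZ3 and 0.226 ± 0.0188 in sgC, with no separation. With the longest transcript as the length these ratios were 0.801, 0.837 and 0.736, so their size depends on the annotation.

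**Figure D5:**
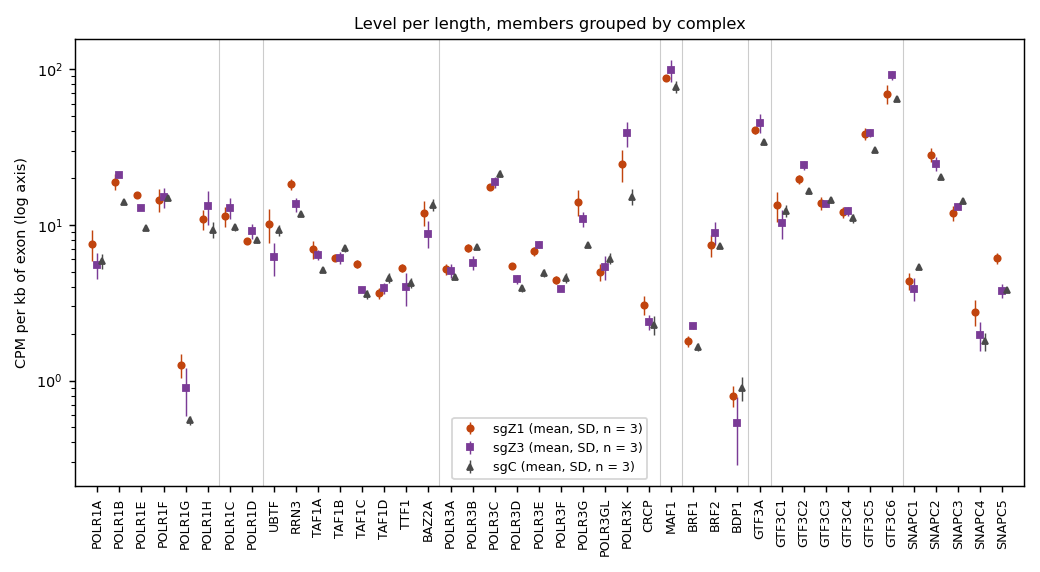
Mean level per kb of exon (CPM per kb, log axis; bars are SD, n = 3) of each member, grouped by complex, with sgZ1 left of sgZ3 and sgC. MAF1 and GTF3C6 are at the top, and POLR1G and BDP1 at the bottom in all 3 groups.

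Genes that work with the machinery but lie outside it were described by the same test. Of the 5 subunits that RNA polymerases I, II and III share and TBP, 5 of 6 rose over both guides and none fell, with a median log2 fold change of 0.48: POLR2E (0.49), POLR2F (0.86), POLR2H (0.47), POLR2K (0.42) and POLR2L (0.84). POLR2H lost its call in 4 of 18 alternatives and POLR2K in 2. TBP, which serves all 3 enzymes, was not called at 0.27. In sgZ1 4 of the 6 rose, and 1 with GC and length offsets. In sgZ3 5 rose in either setting. Of 8 listed genes named for RNA polymerase II and not shared with the other enzymes, 4 rose and 1 fell, POLR2M (-0.48). Their median was 0.37, beside 0.26 in the 42 members. Over both guides 18.6% of all tested genes were higher and 14.6% lower. In sgZ3 4 of the 8 rose and 2 fell, POLR2A (-0.62) and POLR2M (-0.65), where 19.2% of all genes were higher and 17.1% lower. In sgZ1 3 of the 8 rose and 1 fell, where 15.5% of all genes were higher and 10.3% lower. Relative to sgZ1, 3 were lower in sgZ3 and none higher, where 15.8% of all genes were lower and 12.8% higher.

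Of 20 partners of ribosomal DNA transcription and nucleolar chromatin, 10 rose and none fell over both guides, with a median of 0.27, where 18.6% of all genes were higher and 14.6% lower. With library totals 5 rose and none fell, where 1885 of 14732 genes were higher and 3265 lower. Without both mesenchymal-marker libraries 12 rose and 3 fell, where 3442 of 14923 genes were higher and 3967 lower. By guide, 10 rose and none fell in sgZ1 and 6 rose and 1 fell in sgZ3. Of all genes 15.5% were higher and 10.3% lower in sgZ1, and 19.2% and 17.1% in sgZ3. Between the guides 12.8% were higher in sgZ3 and 15.8% lower. Relative to sgZ1, sgZ3 had 1 partner higher and 6 lower, with a median of -0.22, and the lowest was TCOF1, which encodes the nucleolar protein treacle (-1.68, adjusted p = 0.00634). LYAR, a nucleolar zinc-finger protein, rose 1.9-fold (log2 fold change 0.93, SE 0.09, edgeR adjusted p = 8.64e-05). CAVIN1, also known as the Pol I release factor PTRF, rose 1.78-fold (log2 fold change 0.83, SE 0.14, edgeR adjusted p = 0.00165). NOL11 and UTP4, subunits of a processome module that couples transcription to the first processing steps, rose by 0.42 and 0.42, HEATR1 of the same module by 0.34 and WDR43 by 0.34. The call of HEATR1 was lost without sgC replicate 1 and that of WDR43 without sgC replicate 1 or 2 and with library totals. Of the promoter factors that work with SNAPc, ZNF143 rose (0.44, adjusted p = 0.0022) and POU2F1 fell (-0.39, adjusted p = 0.028), and POU2F1's call was lost without sgZ3 replicate 1 or 2 or sgC replicate 1 or 3 and with GC and length offsets.

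The RNAs that the 2 enzymes make were read only in part. In the ribosomal RNA libraries the 5 entries of the 45S precursor took 74.5 to 74.6% of estimated counts in sgZ1, 75.1 to 75.3% in sgZ3 and 74.9 to 75.3% in sgC. The log2 difference over both guides was -0.0042 (two-sided exact permutation p = 0.357). By the same exact permutation test it was -0.010 for sgZ1 (p = 0.1), 0.0020 for sgZ3 (p = 0.6) and 0.012 for sgZ3 against sgZ1 (p = 0.1), where 0.1 is the smallest p that 3 against 3 can give. These entries include the sequence of the mature ribosomal RNAs, so the share is no measure of precursor alone, and a share of a library does not read the total amount per cell. The 5S entry had 0 to 13 counts of 48581516 to 74939039, with exact permutation p of 0.31 over both guides and 0.3, 0.7 and 0.8 in the other comparisons, too few to read. In poly(A) RNA 3 of 20 listed Pol III transcripts were in the table and 2 were tested. Neither RMRP nor RPPH1 was called, and sgZ3 replicate 2 stood apart in both, at 85.5 CPM for RMRP, where the other 8 libraries had 2.14 to 13.0 CPM, and at 35.1 CPM for RPPH1, where they had 2.42 to 10.8 CPM.

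The E-box split of the members is a description. Of the 7 members with CACGTG in the promoter 4 rose and 1 fell, with a median of 0.30. Of the 28 without it 11 rose and 3 fell, with a median of 0.10. Over all tested genes 18.6% were higher and 14.6% lower. These small sets were not compared by a test. The 7 promoters had a median GC content of 67.7%, against 59.8% in the 28.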

How the data were processed

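Poly(A) and ribosomal RNA libraries of DLD1 cells were grouped by guide and replicate number from the sample titles. The description of 1 sgC poly(A) sample points to the other table, and the sample was kept where its title and molecule put it. For poly(A) RNA the authors deposited whole-number counts per gene, not normalized, with 16044224 to 24535642 per library. For ribosomal RNA the authors deposited estimated counts, which need not be whole. Per the submitters' processing notes the tools were STAR 2.5.2b, SAMtools 1.9, HTSeq and DESeq2, on hg38 or GRCh38. An annotation release and the strand setting of counting were not given in the sources used here.

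Tests on poly(A) counts used edgeR 4.0.16 (R 4.3.3): filterByExpr (14732 genes), TMM factors, a robust quasi-likelihood fit over all 9 poly(A) libraries with group as the only term, and Benjamini-Hochberg adjustment over all genes tested, called at a false discovery rate under 0.05. All adjusted p-values of genes come from this fit or from the alternatives named. CPM values use TMM-scaled totals, and levels per kb use the union of a gene's exons in GENCODE 29. Ribosomal RNA shares were compared with two-sided exact permutation tests.

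The members, lists and alternatives were chosen with earlier results of these data known. Values in every library are given for the 12 called members with the smallest adjusted p over both guides, for members that differ between guides by at least 0.5 (log2) and for the pairs POLR3G and POLR3GL, and BRF1 and BRF2. The other members are given by their fold changes, and other lists by counts and up to 6 called genes. The alternatives were RLE and upper-quartile factors, library totals, testing every gene with a count, testing genes that average 10 CPM or more, the compared groups only, a replicate block, offsets fitted per library on gene length and GC content (99.1% of tested genes had both), each library left out, both libraries with mesenchymal markers left out, DESeq2 1.42.0 and a false discovery rate under 0.01. Replicate numbers were not taken to pair libraries. Deviations of same-number libraries correlated at -0.12 to 0.25 and those of different numbers at -0.26 to 0.20, which does not settle it.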

Additional observations from a re-analysis of the deposited data

Results flagged for a closer look

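The effect of the ZNF692 guides against sgC differed between sgZ3 and sgZ1 in 12 members, by the edgeR test of the difference itself at a false discovery rate under 0.05, beside 28.6% of all tested genes. The values are log2 fold changes of sgZ3 relative to sgZ1. Among the 8 lower in sgZ3, the value was -0.71 for UBTF, -0.69 for SNAPC5, -0.56 for TAF1C and -0.45 for BAZ2A. It was -0.43 for RRN3, -0.31 for POLR3B, -0.29 for POLR3D and -0.26 for POLR1E. Among the 4 higher in sgZ3, it was 0.65 for POLR3K, 0.39 for GTF3C6, 0.32 for BRF1 and 0.30 for GTF3C2. Each guide made its own stable cells, so a difference between guides and a difference between these cell populations cannot be told apart. In sgZ3 replicate 3 and sgZ1 replicate 2, the libraries with mesenchymal markers, UBTF was at 55.4 and 51.9 CPM, between the sister libraries of both guides, and the part of those libraries in the other differences is given by the values without them.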

How the results depend on the processing

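Counts of called members depended on the setting more than single strong calls did. Over both guides 8 of 22 calls held in all alternatives run, in sgZ1 8 of 16, in sgZ3 7 of 19 and between guides 1 of 12, and 0 reversed. Main counts, higher and lower, were 18 and 4 over both guides, 14 and 2 in sgZ1, 14 and 5 in sgZ3, and 4 and 8 for sgZ3 against sgZ1. In the same order 33.2%, 25.8%, 36.3% and 28.6% of all genes were called. With library totals alone the members' counts were 11 and 7 over both guides, 7 and 11 in sgZ3, and 2 and 14 between guides, where 35%, 39.9% and 28.9% of all genes were called. Without both mesenchymal-marker libraries 9 were lower over both guides, 6 in sgZ1 and 9 in sgZ3, with 10 higher and 16 lower between guides. There 49.6%, 39.5%, 55.3% and 53.2% of all genes were called. At a false discovery rate under 0.01 there were 10 higher and 0 lower over both guides, 0 lower in sgZ1, 9 higher and 0 lower in sgZ3, and 0 higher and 3 lower between guides. At that threshold fewer genes were called across the whole table, 15.5%, 13.6%, 17.7% and 15.3%. Without a low-count filter 0 were lower in sgZ1 and 2 higher between guides, where 15.1% and 16.9% of all genes were called. Between guides there were also 2 higher with a mean of at least 10 CPM, 11 higher with GC and length offsets, and 2 higher and 4 lower with the compared groups only. In these settings 28.9%, 43.2% and 21.2% of all genes were called. DESeq2 gave 19 and 4, 15 and 2, 16 and 5, and 4 and 8, and called 32%, 22.2%, 35.1% and 24.7% of all genes. The share of all calls that were higher was 56.0% over both guides, 45.9% with upper-quartile factors, 36.6% with library totals, 47.8% with GC and length offsets and 46.5% without both mesenchymal-marker libraries. In sgZ3 it was 29.6% with library totals, in sgZ1 35.6% and between guides 71.7% with GC and length offsets, where the median of all genes between guides was 0.14, against -0.012.

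With the replicate number as a block the counts were 21 and 4 over both guides, 16 and 2 in sgZ1, 14 and 5 in sgZ3, and 4 and 13 between guides. With this block 37.3% of all genes were called over both guides and 34% between guides, against 33.2% and 28.6% without it. Same-number correlations were 0.0032, 0.25 and 0.14 (sgZ1 and sgC), 0.040, 0.091 and 0.17 (sgZ3 and sgC) and -0.036, -0.0040 and -0.12 (sgZ3 and sgZ1). Different-number ones ran from -0.26 to 0.20. These values do not settle whether libraries of the same number were paired.

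Leaving out 1 library gave 9 to 20 higher and 0 to 6 lower over both guides, 10 to 18 and 0 to 2 in sgZ1, 9 to 16 and 0 to 6 in sgZ3, and 0 to 9 and 2 to 15 between guides. The share of all genes called ran from 14.5% to 42.2%, 14% to 32.3%, 20.2% to 45.2% and 16.6% to 41% in the same order. With the longest transcript as length, the log2 ratio of POLR3G to POLR3GL in sgC was 0.41, and that of BRF1 to BRF2 was -0.33 in sgZ1, -0.28 in sgZ3 and -0.44 in sgC. Counts of the 5S entry, 0 to 13 a library, limit what can be read of that product.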
